A study of Mus musculus with 134 samples.

Results

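Single mouse embryonic stem cells (mESCs) divided beside a Wnt3a-coated bead, and the 47 sister pairs described here are those in which the daughter next to the bead (proximal) was in the cluster the study called Proxi and the daughter away from it (distal) was in the cluster called Dista. They were chosen from 376 pairs, of which 249 had both cells passing the study's filter of more than 1000 and fewer than 5000 genes. The cells were of the line ES-E14TG2a, which the labels call E14 (strain 129/Ola), grown with Wnt3a beads for 12 h, and every cell compared here had a bead in its pair, so there is no pair without Wnt3a among them. Cytoplasmic RNA was profiled by scSET-seq, a method that takes the RNA off before an antibody is added to the nuclei, in 10 experiments with an H3K27me3 antibody and 6 with an H3K4me3 antibody. Split pairs came from 6 of the H3K27me3 experiments, with 21 pairs, and from 4 of the H3K4me3 experiments, with 26 pairs. Sisters were taken to be the neighboring wells of a plate row, in an odd and the following even column, which the study's text does not spell out.

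Wnt3a is a secreted ligand that binds Frizzled and LRP receptors and keeps beta-catenin from being degraded, and beta-catenin then acts on genes through TCF/LEF factors. In mESCs this pathway is known to help hold the naive pluripotent state. A ligand presented on a bead reaches a dividing cell from one side, and the proximal daughter is known from reporter experiments to hold more of naive factors such as Nanog than the distal daughter. Nanog is a homeobox factor of the naive state, Zfp42 (Rex1) is a zinc finger protein used as a naive marker, Rnf7 is a RING subunit of cullin ubiquitin ligases, and Ndufb10 is a subunit of complex I of the respiratory chain. In the build of the files (mm9), Nanog lies on chromosome 6 from 122657507 to 122664651, Zfp42 on chromosome 8 from 44380422 to 44392363, Rnf7 on chromosome 9 from 96371360 to 96379094 and Ndufb10 on chromosome 17 from 24859005 to 24861423. Nanog is on the plus strand and the other markers are on the minus strand. Reads on exons and introns were counted together, so no value is that of an exon alone.

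Each well was marked by an i5 index of its row and an i7 index of its column. The i7 indices are shown because they carry the position: every proximal cell sat in an odd column and every distal cell in an even column, so position and index cannot be told apart. The first 4 columns, which held 18 and 11 of the split pairs, had these indices, printed 5′ to 3′ with all 8 bases of the index in capitals:

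column 1, proximal: CGAGTAAT
column 2, distal: TCTCCGGA
column 3, proximal: AATGAGCG
column 4, distal: GGAATCTC

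Sisters share the i5 index of their row. Over all experiments 96 barcodes were used, and 80 of them occur in more than 1 experiment. The study calls the experiments independent without saying whether they were separate cultures, so p-values over experiments measure only the spread between these experiments, which may be technical.

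Among the split pairs, the total per proximal cell ranged from 6208 to 1678796 counts (median 60972). The total per distal cell ranged from 7596 to 2154524 (median 69917). Proximal cells showed a median of 2169 genes and distal cells a median of 2043. The proximal cell was the deeper of the pair in 22 of 47 pairs, and the mean log2 ratio of the totals was -0.15 ± 0.42 (SD, n = 8 experiments). The shallowest split pairs were those of H3K27me3 experiment 4, with a median total of 7012 counts in proximal and 16022 in distal cells. The precursor rRNA gene Rn45s took a median of 7.59% of the counts in proximal and 7.28% in distal cells, against 0.0682% and 0.117% in pairs with both cells in the cluster called Mix. Most of these Mix pairs came from experiments without split pairs, so this gap cannot be told apart from a difference between experiments. Counts are reads without molecular identifiers, and a gene without reads was not detectable at this depth rather than absent.

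The cells of split pairs held RNA of pluripotency genes, detected at very different rates. Dppa5a, an RNA-binding protein of pluripotent cells, was detected in 91 of 94 cells, Trim28, a co-repressor that silences retrotransposons, in 93, Esrrb, a nuclear receptor of the naive network, in 71 and Pou5f1 (Oct4) in 20. Of the naive genes, Dppa3 and Nr0b1 were detected in 11 cells each and Prdm14 in 5. The 10 primitive endoderm markers together took 0.00436% of the counts in proximal and 0.00781% in distal cells. Of them, Gata4 and Sox7 were at 0 in all 94 cells, Gata6 was detected in 2 and Sox17 in 1, but Lama1 was detected in 26 and Col4a1 in 20. The 7 fibroblast markers took 0.00592% and 0.000634%, and of them Col1a1, Col3a1 and Postn were at 0 in all 94 cells, while Thy1 was detected in 7. Zscan4c, a gene of the two-cell-like state that mESCs enter at times, was detected in 12 proximal and 18 distal cells, and its reads can be shared with near-identical Zscan4 copies.

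Whether a Proxi daughter had a Dista sister more often than the label counts alone would give was asked first. Among the 249 pairs with both cells passing, 47 were split in this way and 0 were split the other way round, with a proximal Dista and a distal Proxi cell. The others were 97 pairs with both cells in Mix, 45 of a proximal Proxi and a distal Mix cell, 21 with both cells in Dista, 16 of a proximal Mix and a distal Dista cell, 10 with both cells in Proxi, 8 of a proximal Dista and a distal Mix cell and 5 of a proximal Mix and a distal Proxi cell. The study, in contrast, reports that neither the Proxi nor the Dista cluster held a sister pair of its own. The pairing by neighboring wells thus differs from the study's account, and which of them is right was not tested.

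In the 11 experiments with at least 1 proximal Proxi and 1 distal Dista cell, 90 proximal cells were in Proxi and 83 distal cells in Dista, over 184 pairs. Within an experiment, the number of split pairs expected from these label counts is their product divided by the pairs. The counted 47 split pairs stood beside 48.98 expected. The counted number was above the expected one in 3 experiments and below it in 8, and the mean difference was -0.18 ± 1.09 pairs per experiment (exact sign-flip permutation over 11 experiments, two-sided, p = 0.616; the smallest p this allows is 0.000977). The largest excess was in H3K4me3 experiment 4, with 4 split pairs where 1.39 were expected. Without it the mean difference was -0.46 pairs per experiment (exact sign-flip permutation, p = 0.0449). With all 11 experiments, the counted number was thus close to what the label counts of each experiment give. In some experiments the label counts themselves hold the number near the expected one. H3K27me3 experiment 7, for instance, had 14 proximal Proxi and 14 distal Dista cells in 18 pairs. There the number had less room below the expected one than above it, whereas a sign flip takes both sides as equal. The closeness and these p-values therefore say little about how sisters were paired.

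**Figure D1:**
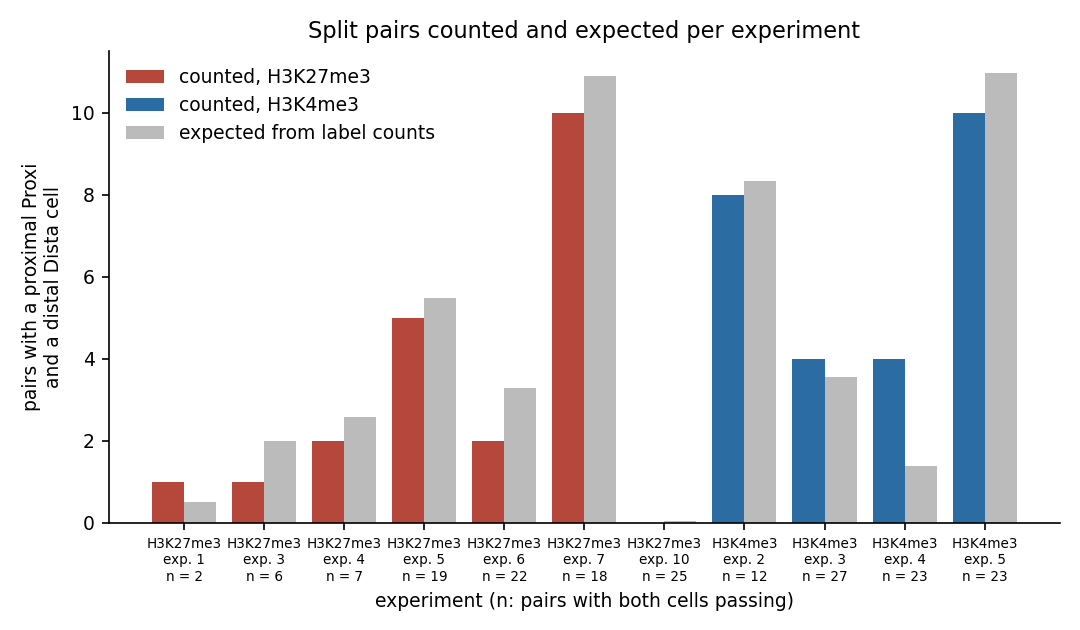
Split pairs per experiment, with the counted number in color (H3K27me3 or H3K4me3 experiments) and the number expected from the label counts in gray; n is the number of pairs with both cells passing. H3K27me3 experiment 7 and H3K4me3 experiment 5 held 10 split pairs each, beside 10.89 and 10.96 expected, and their label counts leave little room for fewer.

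Split pairs gathered in some experiments. H3K27me3 experiment 7 and H3K4me3 experiment 5 gave 10 each, H3K4me3 experiment 2 gave 8, H3K27me3 experiment 5 gave 5, H3K4me3 experiments 3 and 4 gave 4 each, H3K27me3 experiments 4 and 6 gave 2 each, and H3K27me3 experiments 1 and 3 gave 1 each. H3K27me3 experiments 2, 8, 9 and 10 and H3K4me3 experiments 1 and 6 gave 0. The 8 experiments with at least 2 split pairs, which hold 45 of the 47, carry the values below.

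The sisters of split pairs were more alike than a proximal and a distal cell taken from different split pairs of the same experiment. The mean Pearson's r over 3680 genes was 0.468 ± 0.071 (SD, n = 8 experiments) between sisters and 0.429 ± 0.083 between non-sisters. The genes were those detected in at least 20% of the 94 cells, on the log2(CPM + 1) scale, where CPM are the counts scaled to 1000000 per cell. The difference was 0.0387 ± 0.037, was above 0 in 7 of 8 experiments, and exceeded the spread between experiments (exact sign-flip permutation, two-sided, p = 0.0234; the smallest p this allows is 0.00781). Sisters and non-sisters were made up of the same cells.

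**Figure D2:**
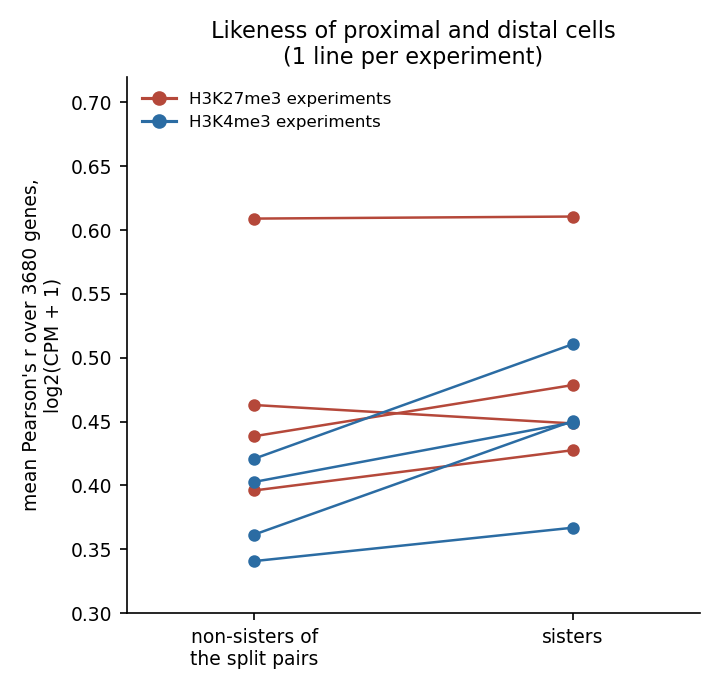
Mean Pearson's r across genes between proximal and distal cells of split pairs, for non-sisters (left) and sisters (right), with 1 line per experiment. The line rises in 7 of 8 experiments, and H3K27me3 experiment 4, with 2 pairs, is the exception.

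H3K27me3 experiment 4 gave 0.449 for its sisters and 0.463 for its non-sisters, and H3K27me3 experiment 6, also with 2 split pairs, gave 0.611 and 0.609. The largest differences were 0.0896 in H3K4me3 experiment 4 and 0.0888 in H3K4me3 experiment 3. Sisters share a plate row and its i5 index, so non-sisters of the same row were also taken. Against these, sisters were more alike by 0.0237 ± 0.022, in 6 of 6 experiments (exact sign-flip permutation, p = 0.0312, which is the smallest p that 6 experiments allow). Against non-sisters of the same pair of columns, which share both i7 indices, the difference was 0.0442 ± 0.039 over 7 experiments (exact sign-flip permutation, p = 0.0312). With every cell thinned to 6208 counts, the difference was 0.0199 ± 0.023 (exact sign-flip permutation over 8 experiments, p = 0.0391).

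As a description, the likeness of sisters in split pairs was set beside that in other pairs of the same experiments. The mean r was 0.434 in 35 split pairs and 0.440 in 18 pairs with both cells in Dista, over 5 experiments, with a difference of -0.0063 ± 0.015. Over 3 experiments, r was 0.524 in 10 split pairs and 0.664 in 25 pairs with both cells in Mix. Over 6 experiments, r was 0.488 in 35 split pairs and 0.530 in 30 pairs of a proximal Proxi and a distal Mix cell, and it was higher in the split pairs in 1 of 6. The clusters were made from these profiles, so no test is given for these.

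The clusters were made by the study from the expression of these same cells. All differences between a Proxi cell and its Dista sister are therefore descriptions, without a test. They are given as proximal minus distal values of log2(CPM + 1), averaged over the pairs of an experiment and then over the 8 experiments, so a gene without reads in both cells counts as 0.

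Of the 4 markers, Ndufb10 was the one whose mean difference exceeded its SD over experiments, and it was lower in the Proxi sister. Rnf7 and Zfp42 had means above 0 and Nanog a mean below 0, each with an SD larger than the mean. Ndufb10 was detected in 13 proximal and 27 distal cells. It was seen only in the distal sister in 16 pairs, only in the proximal sister in 2, in both in 11 and in neither in 18. Its level was higher in the distal cell in 26 pairs and in the proximal cell in 3. The experiment means ran from -5.82 to 0, with a median of -2.89 and a mean of -2.73 ± 2.30 (SD, n = 8), and 7 of them were below 0. In H3K27me3 experiment 4, neither cell of either pair had a Ndufb10 read. The lowest mean was that of H3K4me3 experiment 2.

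Rnf7 was detected in 29 proximal and 28 distal cells, so detection was nearly even. The proximal cell was higher in 24 pairs and the distal cell in 12. The experiment means ran from -1.77 to 3.96, with a median of 0.71 and a mean of 1.18 ± 1.92, and 6 of 8 were above 0. The lowest was that of H3K27me3 experiment 5 and the highest that of H3K4me3 experiment 2, which was also where Ndufb10 was lowest. Without H3K4me3 experiment 2 the mean of Rnf7 was 0.79, and it was 1.88 with the experiments of 1 split pair.

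Zfp42 was detected in 34 proximal and 34 distal cells, in both sisters in 28 pairs. The proximal cell was higher in 22 pairs and the distal cell in 18. The experiment means ran from -1.07 to 4.06, with a median of 0.48 and a mean of 0.88 ± 1.85, 4 above 0 and 3 below. The mean was 0.42 without H3K27me3 experiment 6, 0.56 without H3K4me3 experiment 2 and 1.61 with the experiments of 1 split pair. In H3K27me3 experiment 7, which has the lowest mean, single pairs ran from -12.8 to 9.62.

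Nanog was detected in 30 proximal and 35 distal cells, and the experiment means ran from -3.06 to 2.28, with a median of -1.27 and a mean of -0.86 ± 1.77. By pairs it was near even, with 22 higher in the proximal and 19 higher in the distal cell. All 4 H3K27me3 experiments had means below 0, averaging -2.09 ± 0.97, and 3 of 4 H3K4me3 experiments had means above 0, averaging 0.37 ± 1.52. With both cells thinned to the lower total of the pair, the mean of Nanog was -0.15. It was -0.55 without H3K27me3 experiment 7 and -1.31 without H3K4me3 experiment 3. The experiments with 1 split pair lay at the extremes, with -9.47 in H3K27me3 experiment 1 and 9.26 in H3K27me3 experiment 3.

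**Figure D3:**
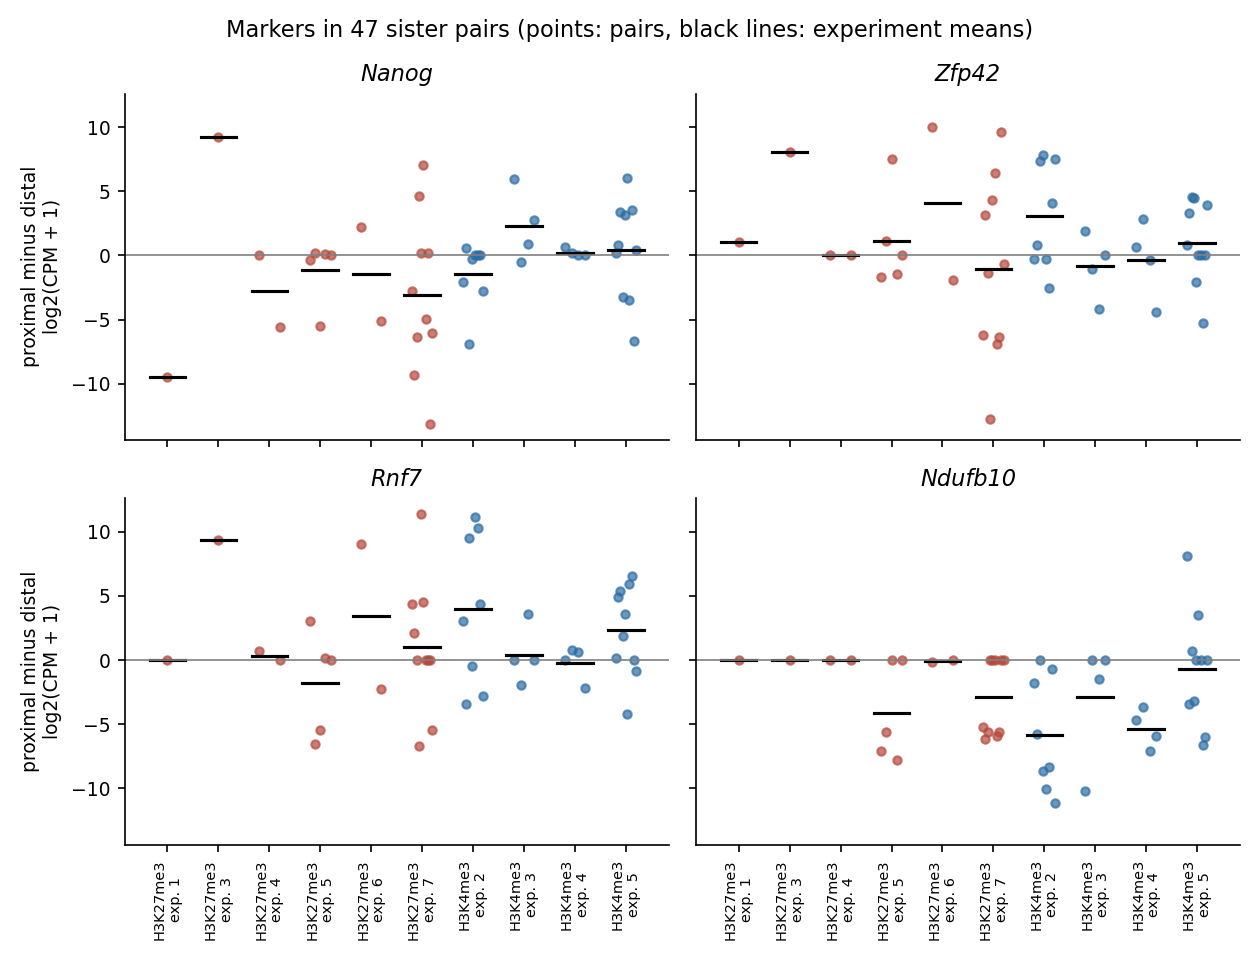
Proximal minus distal log2(CPM + 1) of Nanog, Zfp42, Rnf7 and Ndufb10 in each of the 47 split pairs (points), by experiment, with the experiment mean as a black line and H3K27me3 experiments in red and H3K4me3 experiments in blue. Ndufb10 lies at or below 0 in 44 pairs, while the points of the other markers fall on both sides of 0.

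The markers seldom moved together. In 3 pairs all 4 markers had the direction of their label, with Nanog, Zfp42 and Rnf7 higher and Ndufb10 lower in the proximal cell, and in 16 pairs 3 of them did. In 5 pairs 0 of them did. Nanog and Zfp42 were both higher in the proximal cell in 13 pairs, both higher in the distal cell in 8, and went in opposite directions in 15. Over all cells of both clusters, in the 11 experiments with at least 2 of each (116 Proxi and 116 Dista cells), Nanog differed by -0.08 ± 1.43 and Zfp42 by -0.58 ± 1.71 (Proxi minus Dista, SD over experiments), whereas Rnf7 differed by 1.63 ± 2.38 and Ndufb10 by -1.47 ± 1.88. The SD was larger than the mean for each of the 4. The study compared Nanog and Zfp42 (Rex1) among its clusters, Mix included, and reports higher levels in Proxi cells. The means here set Proxi against Dista alone, and against Dista they do not show this. In cells of Mix pairs, Nanog was detected in 19.6% and Zfp42 in 23.7%. In proximal Proxi cells with a Dista sister it was 63.8% and 72.3%, without matching of depth or experiment. The study's clusters came from profiles merged over both antibodies and corrected for batch, whereas the values here are uncorrected.

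The study also tested 9 genes as cluster markers on these cells, so their values here are not independent of that choice. The 9 include Rnf7 and Ndufb10. Of these 9, 3 were higher in the proximal cell and 6 lower, beside a share of 38.9% of all 3680 genes with a mean above 0. Rpl10a, a ribosomal protein, was higher, with 1.12 ± 1.91 and 6 of 8 experiments above 0, and Rps4x, another ribosomal protein, was lower, with -0.71 ± 0.91 and 6 of 8 below 0, but moved to 0.38 when the experiments with 1 split pair were added. Ftl1, the ferritin light chain, was at 0.18 ± 0.99, Ywhae, a 14-3-3 protein, at -0.32 ± 1.56, and Rpl37 at -0.17 ± 1.51. Rpl37 turned to 0.06 with a pseudocount of 10, to 1.42 with the experiments of 1 split pair, to 0.64 over all pairs and to 0.14 after thinning. Aebp2, a PRC2 accessory subunit, was at -0.21 ± 1.17 and Peak1, a pseudokinase of the cytoskeleton, at -0.10 ± 0.60. For each of these 7 genes the mean was smaller than its SD over experiments. Ftl1 and the ribosomal protein genes have near-identical processed copies in the genome, and how reads were shared among them is not given in the sources used here.

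The median of the 3680 genes was -0.18 on this relative scale, and the median absolute difference was 0.48, against a median SD over experiments of 1.58. A median below 0 was not particular to split pairs. It was -0.28 in pairs with both cells in Dista, 0.10 in Mix pairs and -0.02 in pairs of a proximal Proxi and a distal Mix cell. The mean difference in genes detected (proximal minus distal) was -127 in split, -253 in Dista and 140.5 in Mix pairs. The part of this difference in these medians was not tested. With the cells of each pair thinned to the lower total, the median in split pairs was -0.12, with 42.4% of genes above 0. A total of 24 genes had the same sign in all 8 experiments, which is 0.652% of those tested, 8 higher in the proximal cell (0.217%) and 16 lower (0.435%). At 7 or more of 8 experiments it was 5.14%. The count was 1 when the experiments with 1 split pair were added and 13 when the cells of each pair were thinned to the lower total. These 24 were picked by their signs in this contrast, so they are listed and not tested.

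Higher in the Proxi sister were Cox6b1, Fam192a, Orc6, Pard3, Pcbp4, Thada, Nrd1 and Hnrnpdl. Cox6b1, a subunit of cytochrome c oxidase, had experiment means from 0.76 to 8.83 (median 2.87, mean 3.67 ± 2.88), was detected in 39 proximal and 33 distal cells, and was higher in the proximal cell in 29 pairs and in the distal cell in 15. Orc6, a subunit of the origin recognition complex that starts DNA replication, had means from 0.41 to 4.50 (mean 1.95 ± 1.27) and was seen only in the proximal sister in 16 pairs and only in the distal sister in 6. Pard3, a scaffold of the PAR complex that sets cell polarity, had means from 0.43 to 4.00 (mean 1.60 ± 1.14), and was seen only in the proximal sister in 13 pairs and only in the distal sister in 3. For Cox6b1, Orc6 and Pard3 the highest mean was that of H3K27me3 experiment 4, the shallowest, with 2 pairs. The distal cells there had no read of these genes. Fam192a, which binds a proteasome activator, was detected in 18 proximal and 9 distal cells (mean 2.23 ± 2.03). Nrd1, the metalloprotease nardilysin, was detected in 16 and 6 (mean 1.33 ± 0.99), and Pcbp4, an RNA-binding protein, in 14 and 5 (mean 1.53 ± 1.41). Thada was detected in 18 and 8 (mean 1.41 ± 1.06) and Hnrnpdl, another RNA-binding protein, in 22 and 18 (mean 0.93 ± 0.89). Except for Cox6b1, these genes had no read in most cells of either position.

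Lower in the Proxi sister were 16 genes. Atp5l, a subunit of ATP synthase, had experiment means from -6.58 to -0.08 (median -2.82, mean -3.30 ± 2.30) and was seen only in the distal sister in 18 pairs and only in the proximal sister in 1. Ndufa11, a subunit of complex I, had means from -7.08 to -0.60 (mean -2.67 ± 2.20). Sdha, the catalytic subunit of succinate dehydrogenase, had means from -4.11 to -0.22 (mean -2.35 ± 1.51) and was seen only in the distal sister in 16 pairs and only in the proximal sister in 3. Tomm20, a receptor for protein import into mitochondria, had means from -4.26 to -0.65 (mean -2.15 ± 1.56). For Atp5l, Ndufa11 and Tomm20 the lowest mean was again that of H3K27me3 experiment 4, with 2 shallow pairs and no read of these genes in the proximal cells. Each experiment had the same weight in these means, whatever its number of pairs.

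The others of the lower group have varied roles. Glo1, which detoxifies methylglyoxal, had a mean of -2.54 ± 2.06, although H3K4me3 experiment 3 lay just below 0 (-0.00019). Lpp, a LIM protein of focal adhesions, had a mean of -2.48 ± 2.16, and Pfdn5, a prefoldin subunit, of -1.60 ± 1.03. Zfp296, a zinc finger protein of pluripotent cells, had a median of -2.45 over experiments (mean -2.33 ± 1.60) and was seen only in the distal sister in 18 pairs and only in the proximal sister in 4. Others were Src, Psmc1, Lsm3, Trim28, Ppat, Csmd1 and Pde4d, with means between -1.56 for Src, a tyrosine kinase, and -0.91 for Pde4d, a phosphodiesterase that breaks down cAMP. Just outside the rule stood Ndufb10 itself, with 7 experiments below 0 and 1 at 0.

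**Figure D4:**
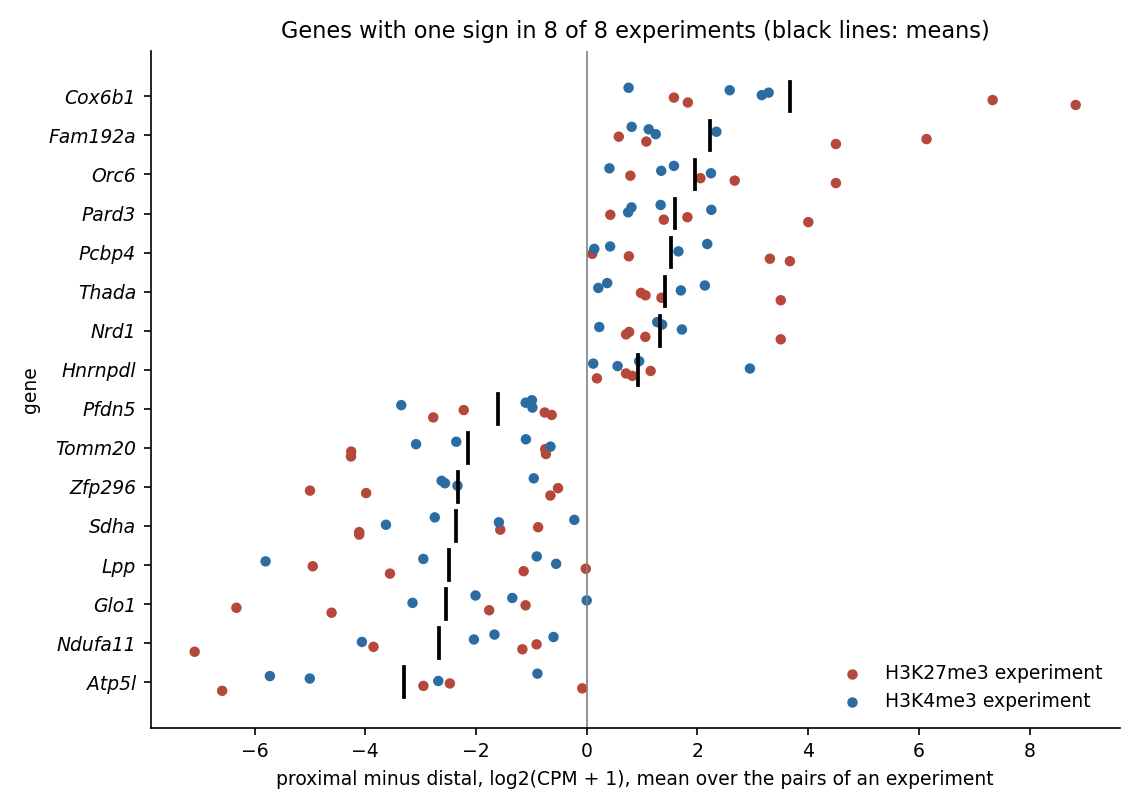
The 8 genes per direction with the largest mean difference among those of the same sign in 8 of 8 experiments. Each point is the mean proximal minus distal log2(CPM + 1) of 1 experiment (H3K27me3 in red, H3K4me3 in blue) and black lines are means over experiments, from 3.67 for Cox6b1 to -3.30 for Atp5l; the genes were chosen by these values.

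For each list, the number of genes higher or lower in the proximal cell and the list median are set beside the share of all genes above 0 (38.9%) and their median (-0.18). These are counts of means, not calls.

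Core pluripotency genes were lower in the proximal cell in 9 of 9 tested members, with a list median of -0.54. The SD over experiments was larger than the mean in all 9. Trim28 had a mean of -1.29 and a median of -0.70, with 8 of 8 experiments below 0, Pou5f1 was at -0.93 ± 1.17 with 5 below and 1 above, and Utf1, a chromatin factor of pluripotent cells, at -0.87 ± 2.25. Dppa5a was at -0.27 ± 1.62 and Sall4, a zinc finger factor, at -0.21 ± 0.90. The naive genes were split, with 5 of 10 higher and a median of 0.06. Beside Zfp42, Esrrb was at 0.83 ± 1.01 and Klf2, a Kruppel-like factor, at 0.34 ± 1.25, whereas Nanog was below 0.

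Of the Wnt pathway components, 1 of 5 tested was higher, with a median of -0.64. Tcf7l1, the TCF factor that represses pluripotency genes until Wnt signaling releases them, was at -1.44 ± 1.28, with 6 of 8 experiments below 0, and was detected in 21 proximal and 31 distal cells. Ctnnb1 (beta-catenin) was at -0.83 ± 1.71 with 4 experiments on each side, Csnk1a1, a kinase of the destruction complex, at -0.64 ± 1.39 and Fzd5, a Wnt receptor, at -0.54 ± 1.87.

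Wnt target genes were mostly too rare to compare. Axin2, the most used readout of the pathway, was detected in 3 proximal and 2 distal cells, Sp5 in 0 and 4, Lef1 in 4 and 1, and Tcf7 in 9 and 4. Rnf43 was at 0 in all 94 cells. Of the 3 targets that passed the detection limit, Nkd1, a feedback inhibitor, was at 0.67 ± 1.47, Znrf3, a ligase that removes Wnt receptors, at -0.09 ± 1.83, and Lgr5, an R-spondin receptor, at -0.42 ± 0.46 with 6 experiments below 0 and 0 above.

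The respiratory chain, to which Ndufb10 belongs, did not move as a group: 37 of 70 genes were higher in the proximal cell, with a median of 0.05. The sign of this median was not stable, and it ran from -0.13 to -0.0068 when each experiment was left out. The list took 1.39% of the counts in proximal and 1.19% in distal cells, with a difference of 0.197 ± 0.38 percentage points, and 4 of its 70 members were among the 24 genes above, which are 0.652% of all genes, with Cox6b1 higher and Atp5l, Ndufa11 and Sdha lower. Its most abundant members were at 0.69 ± 1.92 for Atp5b, 0.40 ± 0.95 for Cox4i1, 0.33 ± 2.58 for Atp5g3 and -0.04 ± 0.82 for Cox5b. Ribosomal protein genes were lower in 59 of 76, with a median of -0.49, and took 8.14% of the counts in proximal and 8.67% in distal cells (difference -0.524 ± 1.5 percentage points). Rpl41 was at -0.22 ± 0.95 and Rpsa at 0.20 ± 0.91. Proteasome genes were higher in 18 of 32, with a median of 0.13, with Psmb3 at 0.62 ± 1.46, Psmb1 at 1.38 ± 1.92, Psmb6 at -0.82 ± 1.55 and Psmb4 at 0.02 ± 3.27, and with Psmc1 lower in 8 of 8 experiments.

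Cullin ligase genes, to which Rnf7 belongs, were higher in 4 of 8, with a median of 0.21. Rbx1, the RING subunit that most cullins use in place of Rnf7, was at -1.17 ± 2.64, with 6 of 8 experiments below 0, opposite in sign to Rnf7. PRC2 genes were higher in 3 of 8 (median -0.19), with Mtf2 at 1.27 ± 2.24, Jarid2 at -0.57 ± 1.76 and Ezh2, the methyltransferase, at -0.99 ± 2.15. S phase genes were higher in 7 of 12 (median 0.04). G2 and M phase genes were lower in 6 of 9 (median -0.88), although Ube2c was at 0.96 ± 1.65 and Ccnb1 at 0.15 ± 3.31. Glycolysis genes were higher in 5 of 12 (median -0.28), with Ldha at 0.99 ± 2.38 and Gapdh at -1.09 ± 2.82. In most of these genes the SD over experiments was larger than the mean.

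**Figure D5:**
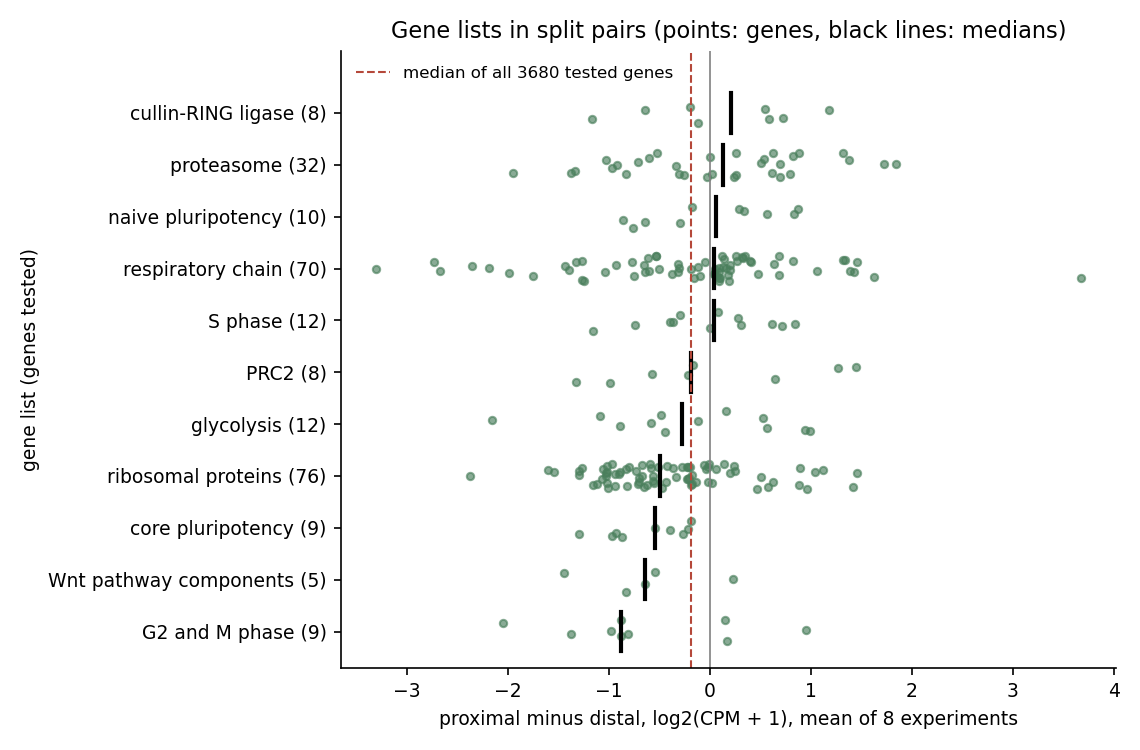
Mean proximal minus distal log2(CPM + 1) over 8 experiments for each tested gene (points) of the lists with at least 5 tested genes, with the list median as a black line and the median of all 3680 genes (-0.18) as a dashed line. The 9 core pluripotency genes lie below 0, while the 70 respiratory chain genes spread to both sides, from -3.30 for Atp5l to 3.67 for Cox6b1.

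Across genes, the experiments had little in common. Pearson's r of the differences over the 3680 genes, which are not independent replicates, had a median of 0.0271 over the 28 pairs of experiments, from -0.046 to 0.333, and was 0.080 between the mean of the H3K27me3 and the mean of the H3K4me3 experiments.

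Proximal and distal cells were also compared in pairs whose cells carried one label, in cells that the split pairs do not contain. Position cannot be told apart from the i7 index here either. The labels came from expression, so pairs whose cells differed enough to be labeled apart are left out by this choice. A low number of calls can be partly set by it and does not speak for position in other pairs. Counts were summed per experiment and position and tested with edgeR's quasi-likelihood test with the experiment as a block. In 95 pairs with both cells in Mix, over 7 experiments, 0 of 1857 genes had an adjusted p below 0.05 (0%), 47 had an unadjusted p below 0.05 (2.53%), DESeq2 called 12 and limma 0. Most of these pairs came from experiments without split pairs, with 24, 19 and 23 in H3K27me3 experiments 8, 9 and 10. Pairs with both cells in Dista rest on the pairing by neighboring wells, since the study reports none. In 20 pairs with both cells in Dista, over 6 experiments, 0 of 1060 genes were called by edgeR (0%), 39 had an unadjusted p below 0.05 (3.68%), DESeq2 called 12 and limma 0. On simulated counts, edgeR called 76 of 96 genes changed 8-fold for the Mix pairs and 26 of 87 for the Dista pairs, so smaller differences can have been missed, in the Dista pairs above all.

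Of the markers, Zfp42 passed the count filter in both, with a log2 fold change (proximal over distal) of 0.55 ± 1.49 (SE, edgeR adjusted p = 0.970) in Mix pairs, which turned to as low as -0.38 when single experiments were left out, and 0.36 ± 0.58 (SE, edgeR adjusted p = 0.979) in Dista pairs, and Nanog in Dista pairs, with 0.80 ± 1.31 (SE, edgeR adjusted p = 0.979). Ndufb10 did not pass it. On the log2(CPM + 1) scale, Nanog in Dista pairs had the other sign, with -1.07 ± 2.15 (SD, n = 6 experiments, 4 below 0). On the same scale, Ndufb10 was lower in the proximal cell in Dista pairs too, with -2.0 ± 2.34 (SD, n = 6 experiments, 4 below 0 and 1 above), where 40.5% of cells had a read, and in Mix pairs with -0.50 ± 1.11 (3 experiments below 0 and 0 above), where 8.76% had one.

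Of the 24 genes of one sign in the split pairs, 16 had a mean of the same sign in Dista pairs and 8 of the opposite sign, and in Mix pairs 13 and 11. In Dista pairs, Orc6 (1.85 ± 2.43), Pard3 (0.86 ± 0.76) and Thada (1.59 ± 2.05) were again above 0 on average and Glo1 (-2.41 ± 2.20), Lsm3 (-2.26 ± 2.33) and Csmd1 (-0.67 ± 0.38) below 0. Cox6b1 (-1.49 ± 2.62), Ndufa11 (1.94 ± 2.59), Zfp296 (2.24 ± 3.19) and Ppat (2.59 ± 1.62) had the opposite sign there. All these are SD over 6 experiments, and Csmd1, with 6 of 6 experiments below 0, and Ppat, with 5 above and 0 below, were the ones with the smallest spread for their mean. Cells of these pairs were clustered with the same genes, so these are values side by side.

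Whether a cell differed with its sister's label was asked in cells of 1 label and 1 position. Proximal Proxi cells with a Dista sister, which are the proximal cells of split pairs, were compared with proximal Proxi cells that had a Mix sister, over 6 experiments. edgeR called 0 of 973 genes (0%), with 22 at an unadjusted p below 0.05 (2.26%), DESeq2 called 2 and limma 0. Zfp42 was higher with a Dista sister by 3.34 ± 1.35 on the log2 scale (SE), with an edgeR unadjusted p of 0.0258 that did not hold after adjustment (edgeR adjusted p = 1.00). Rnf7 was at 1.28 ± 1.10 (SE) and Nanog at -0.50 ± 1.41 (SE), both with an edgeR adjusted p of 1.00, and Nanog turned to 0.15 without H3K27me3 experiment 6. Zfp42 was detected in 72.3% of 47 proximal Proxi cells with a Dista sister, in 55.6% of 45 with a Mix sister and in 80% of 10 with a Proxi sister. These percentages pool cells over 10, 14 and 6 experiments, without matching of depth or experiment.

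Distal Dista cells with a Proxi sister were compared with those that had a Dista sister, over 5 experiments. edgeR called 0 of 1538 genes (0%), with 46 at an unadjusted p below 0.05 (2.99%), DESeq2 called 2 and limma 0. Ndufb10 was at 1.86 ± 1.42 (SE), Rnf7 at 1.52 ± 1.70, Nanog at 0.77 ± 1.04 and Zfp42 at -0.67 ± 1.28, each with an edgeR adjusted p of 0.997. Nanog turned to -0.91 with limma on log2(CPM + 1), and Zfp42 to 0.16 without H3K4me3 experiment 2. Nanog was detected in 74.5% of 47 distal Dista cells with a Proxi sister and in 95.2% of 21 with a Dista sister. Here cells were pooled over 10 and 7 experiments without matching of depth, whereas the test blocks by experiment. On simulated counts, edgeR called 45 of 94 genes changed 8-fold for the Proxi cells and 30 of 73 for the Dista cells.

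The antibody is added to the nuclei after the RNA has been taken off, and the split pairs of H3K27me3 and H3K4me3 experiments were compared by the interaction of position and antibody, with the experiment as a block. edgeR called 0 of 4144 genes (0%), with 168 at an unadjusted p below 0.05 (4.05%), DESeq2 called 13 and limma 0. The difference between the antibodies (H3K4me3 minus H3K27me3) was 2.34 ± 2.20 for Nanog on the log2 scale (SE), -0.37 ± 2.55 for Zfp42, -2.48 ± 2.48 for Rnf7 and -0.75 ± 3.65 for Ndufb10, each with an edgeR adjusted p of 1.00. Rnf7 turned to 0.87 with limma on log2(CPM + 1), and Zfp42 to 1.11 and Ndufb10 to 1.76 without H3K27me3 experiment 6. On simulated counts, 0 of 93 genes changed 8-fold and 3 of 93 changed 32-fold were called, so differences of this size could not be seen with 4 experiments for each antibody.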

How the data were processed

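Reads were split by barcode, mapped to mm9 without mitochondria and counted by the authors with zUMIs. The deposited tables hold unnormalized counts of reads per gene and cell, on exons and introns, without molecular identifiers. Positions and clusters came from the study's tables. A total of 18817 genes were used, with 0 for a gene listed in the table of one antibody only. Rows were paired by neighboring columns. CPM of each cell were put on a log2 scale with a pseudocount of 1. Genes detected in at least 20% of the 94 cells and experiments with at least 2 split pairs were used. Sums of counts were tested with edgeR 4.0.16 (TMM, its filter on low counts, quasi-likelihood, Benjamini-Hochberg) with the experiment as a block, and with DESeq2 1.42.0 and limma 3.58.1, in R 4.3.3. Python was 3.11.15. The scripts were also run on simulated counts, drawn from the means and totals of these data, in which 200 genes differed. The genes named are the markers, the study's cluster markers, the genes of the same sign, up to 4 members of highest CPM per list, and others chosen after their values were seen (Axin2, Sp5, Lef1, Tcf7, Rnf43, Pou5f1, Gata6, Sox17, Dppa3, Nr0b1, Prdm14, Thy1, genes at 0, Dista-pair values). The members, lists and tests were chosen with earlier results of these data known. Genomic and bulk libraries were not used here. Some genes that the rule names are not reported here.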

Additional observations from a re-analysis of the deposited data

Results flagged for a closer look

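In 37 sets of values from the experiments with at least 2 split pairs (the named genes and the likeness of sisters), 6 had 1 experiment far from the others. Except for Peak1, the genes of these 6 sets had been picked because their experiment means share a sign. Values picked in this way are not a random draw, so no chance rate is set beside this count. Peak1 was at 1.21 in H3K27me3 experiment 6, with the other experiments between -0.70 and 0.13. Trim28 was at -5.50 in the same experiment, with the others between -1.62 and -0.02, and this experiment holds 2 split pairs. Nrd1 was at 3.51 in H3K27me3 experiment 4, the shallowest, with the others between 0.23 and 1.72. Hnrnpdl was at 2.95 and Ppat at -3.58 in H3K4me3 experiment 2, with the others between 0.12 and 1.16 for Hnrnpdl and between -1.53 and -0.17 for Ppat. Pde4d was at -2.27 in H3K27me3 experiment 5, with the others between -1.13 and -0.29. All values are proximal minus distal log2(CPM + 1), and no cause was tested. None of the named genes had opposite signs in all experiments of either antibody.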

How the results depend on the processing

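The likeness of sisters kept its direction and its side of p = 0.05 under every alternative run, with differences in r from 0.0314 to 0.0463 when each experiment was left out and p from 0.0156 to 0.0469 (exact sign-flip permutation). The difference between counted and expected split pairs ran from -0.46 to -0.071 per experiment when each was left out. The number of genes of the same sign was 24, and 1 when the experiments with 1 split pair were added, 13 after thinning each pair, 14 among 961 genes detected in at least 50% of cells, and 35 to 52 when 1 experiment was left out, which asks for 7 signs in place of 8. None of the 4 markers' means changed sign under another pseudocount, CPM without Rn45s or centring on the median of the genes, the latter 2 chosen after seeing the data. With the experiments of 1 pair added, Rps4x moved to 0.38, Rpl37 to 1.42 and the median of the study's 9 markers to 0.38, and over all pairs the median of the primed epiblast list moved from 0.01 to -0.70. edgeR without its filter on low counts called 14 genes in Mix pairs, 1 in Dista pairs (Rn45s), 1 in Proxi cells (Brpf3) and 1 in Dista cells by sister (Rn45s), and DESeq2 called 12, 12, 2 (Rab1b and Sf3a2) and 2 (1700007K13Rik and Ppat), and 13 for the antibodies. Leaving out each experiment gave 0 to 1 calls in Mix pairs (Nbea without H3K4me3 experiment 6) and 0 in the other tests. Over these, the edgeR log2 values ran through 0 for Zfp42 in Mix pairs (-0.38 to 1.33), Nanog in Proxi cells (-1.27 to 0.15), Zfp42 in Dista cells by sister (-1.56 to 0.16) and, for the antibodies, Zfp42 (-2.90 to 1.11) and Ndufb10 (-2.85 to 1.76). With limma, Nanog moved to -1.07 in Dista pairs and -0.91 in Dista cells by sister, and Rnf7 to 0.87 for the antibodies. Without the replicate block, or with a block of experiment number by position for the antibodies, 0 genes were called. Experiment numbers run separately for each antibody and are shared only as numbers. Depth limits the pairs of H3K27me3 experiments 4 and 5. The causes were not tested.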

Other observations

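Detection of the markers by the label of the sister was as follows. Ndufb10, a complex I subunit, was detected in 57.5% of 47 distal Dista cells with a Proxi sister, in 52.4% of 21 with a Dista sister and in 25% of 16 with a Mix sister. In proximal Proxi cells it was detected in 27.7% of 47 with a Dista sister, in 15.6% of 45 with a Mix sister and in 40% of 10 with a Proxi sister. Depth was not matched between these cells.

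In the 41 pairs of a proximal Proxi and a distal Mix cell over 10 experiments, the proximal minus distal log2(CPM + 1) was 0.55 ± 1.61 (SD over experiments) for Nanog, 0.38 ± 2.31 for Zfp42, 0.29 ± 3.01 for Rnf7 and -0.40 ± 1.4 for Ndufb10. In the 95 pairs with both cells in Mix, Aebp2, the PRC2 accessory subunit, was higher in the proximal cell in 7 of 7 experiments, by 0.33 ± 0.22. edgeR on the summed counts of these pairs gave 0.40 ± 0.21 (SE, adjusted p = 0.960), and in Dista pairs the value was -0.62 ± 1.30 (SD). Aebp2 was picked after its values were seen.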
